A study of Mus musculus with 6 samples.

Results

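Laminins, nidogens and the integrin receptors that bind them were examined in the sensory epithelia of the newborn mouse inner ear, as 36 genes of basement membrane glycoproteins and integrin subunits, with the leukocyte integrins left out. A gene was read by the probe set with the highest mean over all arrays among the probe sets annotated to that gene alone. By this rule 35 of the 36 genes were found, all 35 passed the filter on low values, and they stood among 14184 genes tested in all. The remaining gene, Itga11, is not analysed here. The series holds 6 Affymetrix expression arrays of wild type C3H mice, 3 for the cochlea and 3 for the vestibule, all at postnatal day 2. The study pooled the epithelia of 10 to 12 inner ears, with 3 pools of each tissue, and no treatment or transgene was used. The vestibular pools held the utricle and the saccule together with the cristae of the anterior and lateral canals, and in both tissues the mesenchyme below the epithelium and the attached neurons were kept. Each array therefore read a mixture of cell types, and fewer cells of a type and less RNA per cell cannot be told apart. The sources used here do not say which pool went on which array, so the p-values measure the spread between arrays, which may be partly technical.

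A basement membrane is the thin sheet of matrix on which an epithelium rests and which also wraps blood vessels, Schwann cells and muscle fibres. Laminins are its cross-shaped core and are built from an alpha, a beta and a gamma chain. Nidogens and the proteoglycan perlecan tie the laminin network to the network of collagen IV. Cells hold on to the sheet through integrins, each a pair of an alpha and a beta subunit, and through dystroglycan. In the inner ear this matrix underlies hair cells and supporting cells, and it also surrounds the vessels and nerve fibres of the mesenchyme.

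Values are log2 expression levels computed by the authors with the robust multiarray average (RMA), and differences are vestibule minus cochlea, negative where the cochlear level was the higher. A gene was called when limma gave it an adjusted p (Benjamini-Hochberg) under 0.1 together with a 1.3-fold or larger difference, the thresholds of the study. Of the 35 genes, 11 were higher in the vestibule, 5 were higher in the cochlea and 19 did not pass. Over all genes tested, 15.1% were called towards the vestibule and 7.97% towards the cochlea, against 31.4% and 14.3% of the 35. The median difference was 0.10 for the 35 genes and 0.03 for all genes. All 3 vestibular arrays lay above all 3 cochlear arrays for 9 of the 35 genes (19.9% over all genes), and all 3 cochlear arrays lay above the vestibular ones for 5 (12.4%). The 4 largest differences were those of the integrin subunit genes Itga8 and Itgb6, towards the cochlea, and of the laminin gene Lama1 and the nidogen gene Nid2, towards the vestibule.

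**Figure D1:**
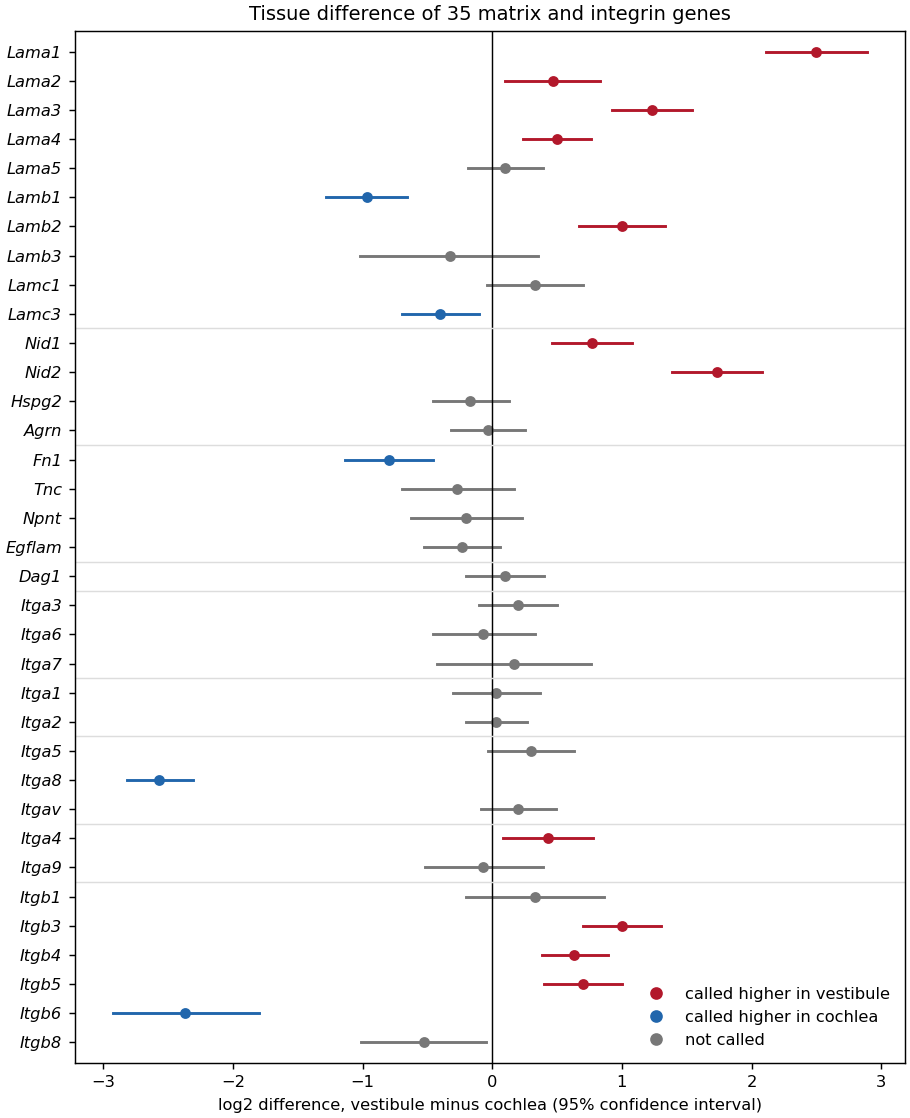
Log2 difference of vestibule minus cochlea for the 35 genes in the order of their roles (laminins, linkers, other matrix, dystroglycan, integrin alpha and beta subunits), 1 point for each gene with its 95% confidence interval from limma on 3 arrays of each tissue. Itga8 at -2.57 and Itgb6 at -2.37 lie farthest to the left, and Lama1 at 2.50 and Nid2 at 1.73 farthest to the right.

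The median log2 level was 5.6 to 5.7 on each of the 6 arrays. Correlations were 0.981 to 0.988 between cochlear arrays, 0.993 between vestibular arrays and 0.945 to 0.961 across tissues. The cochlear arrays varied more among themselves, and the median SD over the 35 genes was 0.20 in the cochlea and 0.15 in the vestibule. All 10 listed hair cell genes and all 10 listed supporting cell genes passed the filter, whereas 6 of 10 skeletal muscle genes did not. With 3 arrays in each tissue the smallest p of an exact permutation test is 0.1, so single genes were judged by limma, which shares the spread over all probe sets.

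The alpha chains, which carry the main receptor-binding end of a laminin, were mostly higher in the vestibule, with 4 of 5 called. Lama1, the alpha chain of the earliest embryonic laminins, read 5.4, 4.9 and 5.5 on the cochlear arrays and 7.8, 7.9 and 7.6 on the vestibular ones. Both groups were tight and lay far apart, and the difference was 2.50 (standard error 0.17, limma adjusted p = 2.8e-05), a 5.66-fold higher level in the vestibule. Lama3, the alpha chain of the epithelial laminin of hemidesmosomes, read 5.0, 4.8 and 5.2 in the cochlea and 6.3, 6.1 and 6.3 in the vestibule. Its difference was 1.23 (standard error 0.14, limma adjusted p = 3.6e-04), and the groups did not overlap. A further probe set of Lama3 lay below the filter, with a mean of 4.13 in both tissues. Lama4, a chain known from vessel walls and peripheral nerve, read 9.3, 9.2 and 9.4 in the cochlea and 9.9, 9.7 and 9.8 in the vestibule. These groups lay close together but apart, and differed by 0.50 (standard error 0.12, limma adjusted p = 0.0183).

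Lama2, the alpha chain of muscle and Schwann cell basement membranes, read 10.6, 10.4 and 10.2 in the cochlea and 11.1, 10.9 and 10.6 in the vestibule. The groups touched at 10.6, and the difference of 0.47 (standard error 0.16) was called by a narrow margin (limma adjusted p = 0.0930). This call was lost without cochlea replicate 1 (0.57, limma adjusted p = 0.106), 2 (0.47, 0.168) or 3 (0.37, 0.259) and without vestibule replicate 1 (0.35, 0.310) or 2 (0.45, 0.245). Lama5, the alpha chain of most mature epithelial basement membranes, read 9.1, 9.3 and 9.0 in the cochlea and 9.3, 9.1 and 9.3 in the vestibule. Its groups overlapped fully, at 0.10 (95% confidence interval -0.19 to 0.39). A further tested probe set of Lama5 stood at 0.03.

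Of the 3 beta chain genes, Lamb1 and Lamb2 were called in opposite directions. Lamb1, the beta chain of the embryonic and widely expressed laminins, read 12.1, 11.9 and 12.3 in the cochlea and 11.2, 11.2 and 11.0 in the vestibule. All cochlear arrays lay above the vestibular ones, and the difference was -0.97 (standard error 0.14, limma adjusted p = 0.00139). Lamb2, the beta chain of mature synaptic, kidney and vascular laminins, read 9.1, 9.0 and 8.7 in the cochlea and 10.1, 9.8 and 9.9 in the vestibule. Here all vestibular arrays lay above the cochlear ones, and the difference was 1.00 (standard error 0.14, limma adjusted p = 0.00153). Of the 4 probe sets of Lamb1, 3 were called higher in the cochlea, at -0.97, -0.83 and -0.97, and the other stood at -0.47 without a call. Lamb3, the beta chain that pairs with the Lama3 chain, read 6.8, 5.6 and 5.8 in the cochlea and 6.1, 5.5 and 5.6 in the vestibule. Cochlea replicate 1 stood apart from the other cochlear arrays, the groups overlapped, and the difference was -0.33 (95% confidence interval -1.02 to 0.35).

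The promoters of Lamb1 and Lamb2 are shown as those of the laminin chains of one kind that were called in opposite directions. The sequences are those of RefSeq (GRCm38.p6), from 250 bases before to 50 bases after a transcription start, at chr12:31265043-31265342 on the plus strand for Lamb1 and at chr9:108479612-108479911 on the plus strand for Lamb2. Capitals mark matches on either strand to GGGCGG, the box bound by Sp1.
Lamb1: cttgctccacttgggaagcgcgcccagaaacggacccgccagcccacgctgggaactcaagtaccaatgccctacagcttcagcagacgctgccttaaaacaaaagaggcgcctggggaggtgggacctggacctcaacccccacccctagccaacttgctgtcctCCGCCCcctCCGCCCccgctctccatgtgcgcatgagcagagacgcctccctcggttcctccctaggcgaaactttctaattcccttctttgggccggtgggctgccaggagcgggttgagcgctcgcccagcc
Lamb2: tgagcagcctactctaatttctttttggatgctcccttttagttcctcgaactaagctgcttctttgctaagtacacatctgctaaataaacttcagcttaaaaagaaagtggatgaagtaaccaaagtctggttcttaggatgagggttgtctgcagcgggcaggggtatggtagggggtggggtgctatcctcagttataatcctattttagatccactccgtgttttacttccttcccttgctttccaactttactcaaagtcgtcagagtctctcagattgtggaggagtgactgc
The window of Lamb1 held 2 such boxes and that of Lamb2 held 0. The box was present in 35.7% of all 32851 windows of this length. The G and C content was 63.7% for Lamb1 and 44.0% for Lamb2. None of 4 further motifs had a match in either window on either strand, namely TATAAA (in 13.6% of all windows), AGATAA (11.2%), CAGCTG (16.3%) and TGACTCA (5.20%). A match or its absence describes only these letters, and binding was not measured. Of the 36 genes, 24 had a window in the table.

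Of the 2 gamma chain genes, 1 was called. Lamc1, the gamma chain shared by most laminins, read 9.1, 9.3 and 8.7 in the cochlea and 9.5, 9.3 and 9.3 in the vestibule. The groups met at 9.3, and 0.33 (95% confidence interval -0.04 to 0.70) did not pass (limma adjusted p = 0.225), although it was called without cochlea replicate 2 (0.47, limma adjusted p = 0.0993). Lamc3, a gamma chain of limited expression, read 5.4, 5.6 and 5.3 in the cochlea and 5.0, 4.9 and 5.2 in the vestibule. Its groups were only 0.1 apart, yet the difference of -0.40 was called (standard error 0.13, limma adjusted p = 0.0786). Without cochlea replicate 1 (-0.42, limma adjusted p = 0.153) or 2 (-0.32, 0.138), or vestibule replicate 1 (-0.38, 0.226) or 2 (-0.33, 0.239), Lamc3 lost its call. Of the 10 laminin chain genes, 5 were thus higher in the vestibule, 2 in the cochlea and 3 did not pass.

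Both nidogen genes were higher in the vestibule, while the genes of the large heparan sulfate proteoglycans were not called. Nid2 read 7.8, 7.8 and 7.4 in the cochlea and 9.5, 9.5 and 9.2 in the vestibule. The groups lay well apart, and the difference of 1.73 (standard error 0.15, limma adjusted p = 9.9e-05) was a 3.32-fold higher level in the vestibule. Nid1 read 10.3, 10.2 and 10.1 in the cochlea and 11.2, 10.9 and 10.8 in the vestibule. Its difference was 0.77 (standard error 0.14, limma adjusted p = 0.00496), again without overlap, and its second tested probe set was called as well, at 0.83. Hspg2, which encodes perlecan, read 8.6, 8.4 and 8.8 in the cochlea and 8.4, 8.4 and 8.5 in the vestibule. Agrn, which encodes agrin, the organiser of acetylcholine receptors at the nerve-muscle synapse, read 11.2, 11.4 and 11.1 in the cochlea and 11.3, 11.1 and 11.2 in the vestibule. In both genes the groups overlapped, with differences of -0.17 (95% confidence interval -0.46 to 0.13) and -0.03 (-0.32 to 0.25).

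**Figure D2:**
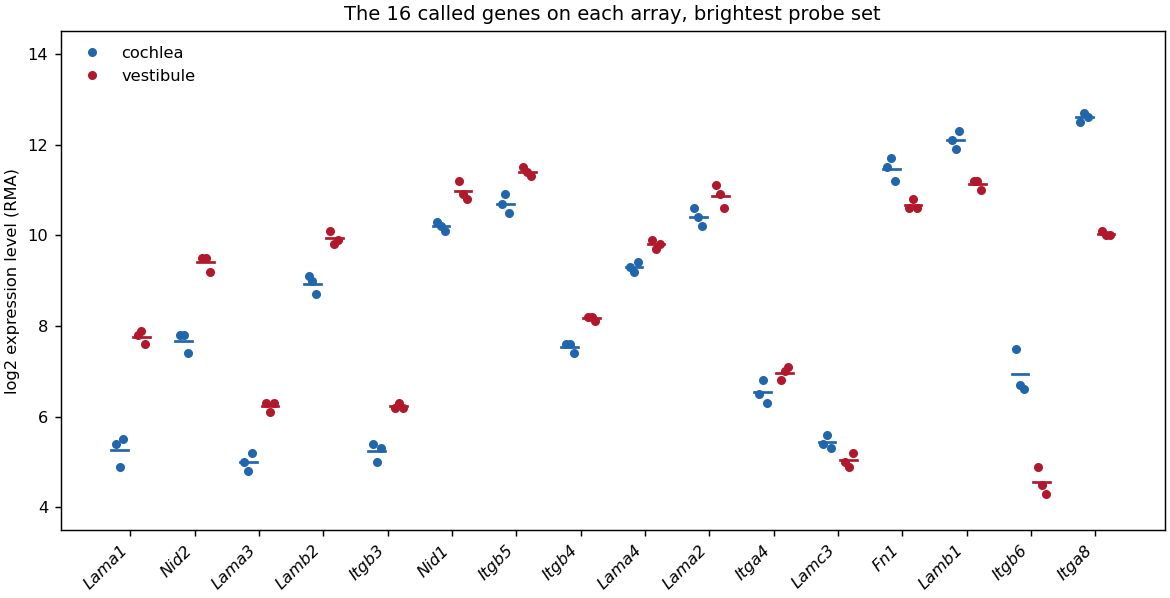
Log2 expression level of the 16 called genes, 1 point for each of 3 arrays of cochlea (blue) and 3 of vestibule (red), with bars at the means and genes ordered by difference. The points of Lama2 and Itga4 touch between tissues, those of Lamc3 nearly so, and heights cannot be compared between genes because each gene is read by a different probe set.

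Among the other matrix genes only fibronectin was called, and it was higher in the cochlea. Fn1, which encodes the ligand of several integrins that recognise the arginine-glycine-aspartate (RGD) motif, read 11.5, 11.7 and 11.2 in the cochlea and 10.6, 10.8 and 10.6 in the vestibule. The groups did not overlap, and the difference was -0.80 (standard error 0.15, limma adjusted p = 0.00630). A further probe set of Fn1 gave -1.67 (standard error 0.19), though its vestibular arrays read only 3.9, 4.4 and 4.2, and the mean of both probe sets stood at -1.23. Tnc, which encodes the anti-adhesive matrix protein tenascin C, read 9.7, 10.2 and 9.7 in the cochlea and 9.6, 9.3 and 9.9 in the vestibule, and differed by -0.27 (95% confidence interval -0.70 to 0.17). Egflam, which encodes pikachurin, a ligand of dystroglycan, stood at -0.23 (-0.53 to 0.06).

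Npnt, which encodes nephronectin, a basement membrane ligand of the integrin containing the Itga8 subunit, depended on the probe set. Its brightest probe set read 11.4, 11.2 and 10.7 in the cochlea and 11.1, 10.8 and 10.8 in the vestibule, with overlapping groups at -0.20 (95% confidence interval -0.63 to 0.23). Its second probe set read 10.9, 10.6 and 10.9 in the cochlea and 10.3, 10.1 and 10.0 in the vestibule. This probe set was called higher in the cochlea at -0.67 (standard error 0.14, limma adjusted p = 0.0101), and the 3 others lay between -0.27 and -0.07 without a call. Dag1, which encodes dystroglycan, the main laminin receptor beside the integrins, read 11.3, 11.4 and 11.5 in the cochlea and 11.7, 11.5 and 11.3 in the vestibule. None of the 4 probe sets of Dag1 differed by more than 0.10, and the interval of the brightest ran from -0.20 to 0.40.

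Of the 16 integrin subunit genes read, 4 were higher in the vestibule, 2 in the cochlea and 10 did not pass. The shares were 25.0% and 12.5%, beside 15.1% and 7.97% of all genes tested. Itga8, the alpha subunit that pairs with the Itgb1 subunit to bind nephronectin and other RGD ligands, read 12.5, 12.7 and 12.6 in the cochlea and 10.1, 10.0 and 10.0 in the vestibule. The arrays of each tissue agreed within 0.2, and the difference was -2.57 (standard error 0.11, limma adjusted p = 2.5e-06), a 5.92-fold higher level in the cochlea. The second probe set of Itga8 gave -2.80 (standard error 0.24, limma adjusted p = 9.7e-05). Itgb6, the epithelial beta subunit that pairs with the Itgav subunit and activates latent transforming growth factor beta, read 7.5, 6.7 and 6.6 in the cochlea and 4.9, 4.5 and 4.3 in the vestibule. No arrays overlapped, and the difference was -2.37 (standard error 0.25, limma adjusted p = 2.9e-04). The vestibular mean of Itgb6, 4.57, lay below 4.68, the lowest mean log2 value that the filter kept, so its vestibular level was near the floor of the array.

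The promoters of Itga8 and Itgb6 are shown as those of the pair of genes with the largest differences towards the cochlea. They lie at chr2:12301895-12302194 and chr2:60722554-60722853 (GRCm38.p6, both on the minus strand), and for Itgb6 the outermost of 2 RefSeq starts is given.
Itga8: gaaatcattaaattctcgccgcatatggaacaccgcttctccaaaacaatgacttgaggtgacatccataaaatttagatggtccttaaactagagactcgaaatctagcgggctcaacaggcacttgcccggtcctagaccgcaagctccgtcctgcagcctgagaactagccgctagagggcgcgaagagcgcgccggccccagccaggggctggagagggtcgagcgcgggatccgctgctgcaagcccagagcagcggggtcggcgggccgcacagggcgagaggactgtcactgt
Itgb6: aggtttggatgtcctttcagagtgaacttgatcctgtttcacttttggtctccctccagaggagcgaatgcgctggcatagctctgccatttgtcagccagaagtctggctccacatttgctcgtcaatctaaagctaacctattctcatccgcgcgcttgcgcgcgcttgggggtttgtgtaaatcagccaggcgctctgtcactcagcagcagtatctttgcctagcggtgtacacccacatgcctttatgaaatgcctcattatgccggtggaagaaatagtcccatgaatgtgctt
Neither window held any of the 5 motifs searched, so no letters are in capitals. The G and C content was 59.0% for Itga8 and 50.3% for Itgb6.

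The alpha subunits that bind laminin did not pass the thresholds. Itga3, of the integrin that anchors epithelia to laminin, stood at 0.20 (95% confidence interval -0.10 to 0.50), and Itga7, the laminin receptor subunit of muscle, at 0.17 (-0.43 to 0.76). Itga6, which pairs with the Itgb4 or the Itgb1 subunit, read 10.7, 10.7 and 10.2 in the cochlea and 10.7, 10.3 and 10.4 in the vestibule, and stood at -0.07 (-0.46 to 0.33). Its second probe set stood at -0.57 (-1.12 to -0.01) and missed the threshold (limma adjusted p = 0.172). The collagen-binding subunit genes Itga1 and Itga2 differed by 0.03 each, with intervals of -0.30 to 0.37 and -0.20 to 0.27. Itgav, the alpha subunit shared by several RGD receptors, read 10.5, 10.4 and 10.6 in the cochlea and 10.8, 10.8 and 10.5 in the vestibule, and stood at 0.20 (-0.09 to 0.49). Itga5, of the classical fibronectin receptor, stood at 0.30 (-0.03 to 0.63, limma adjusted p = 0.212) and was called without cochlea replicate 2 (0.43, 0.0470).

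Itga4, the alpha subunit that binds fibronectin and the vascular adhesion molecule Vcam1, was called higher in the vestibule by the narrowest margin among the 35 genes. It read 6.5, 6.8 and 6.3 in the cochlea and 6.8, 7.0 and 7.1 in the vestibule. The groups touched at 6.8 and differed by 0.43 (standard error 0.15, limma adjusted p = 0.0994). Leaving out any single array but cochlea replicate 2 ended the call: cochlea replicate 1 (0.42, limma adjusted p = 0.227) or 3 (0.32, 0.244), or vestibule replicate 1 (0.52, 0.149), 2 (0.42, 0.254) or 3 (0.37, 0.304). Itga9, the closest relative of the Itga4 subunit, stood at -0.07 (95% confidence interval -0.52 to 0.39).

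Among the beta subunits that pair with the Itgav subunit, calls were made in both directions. Itgb3, known from platelets, bone-resorbing cells and new vessels, read 5.4, 5.0 and 5.3 in the cochlea and 6.2, 6.3 and 6.2 in the vestibule, and differed by 1.00 (standard error 0.13, limma adjusted p = 9.8e-04). A second probe set of Itgb3 stood at 0.07, and the mean of both at 0.53. Itgb5, a receptor subunit for vitronectin, read 10.7, 10.9 and 10.5 in the cochlea and 11.5, 11.4 and 11.3 in the vestibule, and differed by 0.70 (standard error 0.13, limma adjusted p = 0.00734). All 4 probe sets of Itgb5 were called higher in the vestibule, at 0.57 to 0.73. For both genes the vestibular arrays lay above all the cochlear ones, the opposite of Itgb6. Itgb8, which like Itgb6 pairs only with the Itgav subunit, read 9.7, 9.3 and 10.1 in the cochlea and 9.4, 9.2 and 8.9 in the vestibule. The groups overlapped, and Itgb8 (-0.53, 95% confidence interval -1.01 to -0.05, limma adjusted p = 0.137) was called only without cochlea replicate 2 (-0.73, 0.0615) among the arrays left out.

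Itgb4, the subunit of hemidesmosomes that joins the Itga6 subunit to bind the epithelial laminin, read 7.6, 7.6 and 7.4 in the cochlea and 8.2, 8.2 and 8.1 in the vestibule. It was higher in the vestibule without overlap, at 0.63 (standard error 0.11, limma adjusted p = 0.00515). In this ligand and receptor group Lama3 and Itgb4 were thus called higher in the vestibule, and Lamb3 and Itga6 were not called. Itgb1, the common partner of most alpha subunits, read 9.0, 8.9 and 8.1 in the cochlea and 9.0, 8.8 and 9.2 in the vestibule. Cochlea replicate 3 was lower than the rest, and the difference was 0.33 (95% confidence interval -0.20 to 0.86). For the receptor of nephronectin, Itga8 was therefore called and its partner Itgb1 was not.

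**Figure D3:**
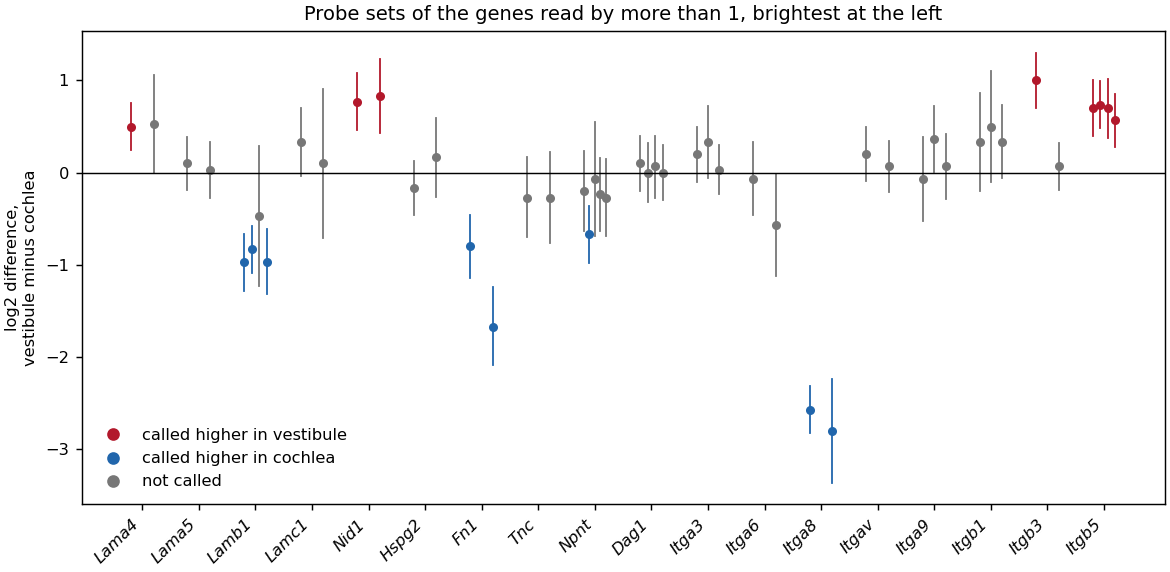
Log2 difference of vestibule minus cochlea with its 95% confidence interval for each tested probe set of the 18 genes read by more than 1, with the brightest probe set of a gene at the left. No gene had probe sets called in both directions, and those of Fn1, Npnt and Itgb3 differed most in size.

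Across the 35 genes 65 probe sets were tested, of which 15 were called towards the vestibule and 10 towards the cochlea. The shares over all genes tested, 15.1% and 7.97%, count 1 probe set for each gene and are no background for these counts. A share over all tested probe sets at the same thresholds is not given here. Whether the 65 probe sets were called more often than others was therefore not tested. In 0 of the 18 genes with more than 1 tested probe set were calls made both ways. Counting a gene as called from any of its probe sets gave 11 genes for the vestibule and 6 for the cochlea, the added gene being Npnt.

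Genes that work beside laminins and integrins were taken from 6 further lists. Of 9 tested collagens of basement membranes, 4 were higher in the vestibule, 1 was higher in the cochlea and 4 did not pass, with a median of 0.47. The shares were 44.4% and 11.1%, beside 15.1% and 7.97% of all genes tested. The collagen IV genes Col4a5 (0.63), Col4a2 (0.60) and Col4a6 (0.57) led towards the vestibule, and Col18a1, the source of endostatin, towards the cochlea at -1.03. Genes that assemble or modify basement membranes divided more strongly, with 6 of 13 (46.2%) higher in the vestibule, 5 (38.5%) higher in the cochlea and a median of 0.57. Ntn1, which encodes the laminin-related guidance protein netrin 1, read 6.4, 6.5 and 6.0 in the cochlea and 9.4, 9.5 and 8.8 in the vestibule, and differed by 2.93 (standard error 0.21, limma adjusted p = 3.0e-05). Ntn4, whose netrin binds laminin gamma chains, stood at 1.67 and Frem1, of the Fraser complex that anchors epithelium to mesenchyme, at 1.53. Egfl6, which encodes a further basement membrane ligand of the Itga8 receptor, read 7.4, 7.8 and 8.0 in the cochlea and 5.6, 5.7 and 5.6 in the vestibule. It differed in the same direction as Itga8, at -2.10 (standard error 0.16, limma adjusted p = 4.4e-05).

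Of 12 tested genes of other integrin ligands, 2 were called towards the vestibule and 1 towards the cochlea, with a median of 0.03. These shares, 16.7% and 8.33%, were close to the 15.1% and 7.97% of all genes tested. Called were Thbs1, for thrombospondin 1, at 1.13, the matricellular gene Ccn1 at 0.73, and, in the cochlea, the adhesion protein gene Tgfbi (limma adjusted p = 0.00163). Of 18 tested genes that link integrins to actin or signal from adhesions, 3 were called, all towards the vestibule (16.7%, against 15.1% of all genes), and the median was 0.23. The talin gene Tln2 stood at 1.00 and the adhesion plaque genes Vcl and Zyx at 0.60 each. Of 12 tested genes of the dystroglycan complex and its glycosylation, 3 were higher in the vestibule, with the dystrobrevin gene Dtna at 1.17, the sarcoglycan gene Sgce at 0.67 and the utrophin gene Utrn at 0.63. In the same list 2 were higher in the cochlea, led by the syntrophin gene Sntb1 at -0.70, and the median was 0.15. The other cochlear call was narrow (limma adjusted p = 0.0994), with groups that touched. The shares of this list were 25.0% and 16.7%, beside 15.1% and 7.97% of all genes. Of 6 other laminin receptor genes, the syndecan genes Sdc2 (1.07) and Sdc3 (0.60) were called towards the vestibule (33.3%). The other 4 did not pass, and the median was 0.20. Sdc3 was called by a narrow margin (limma adjusted p = 0.0994), and its groups touched at 9.6. The vestibular share of all 70 tested genes in the 6 lists was 28.6% and the cochlear share 12.9%, beside 15.1% and 7.97% of all genes tested.

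**Figure D4:**
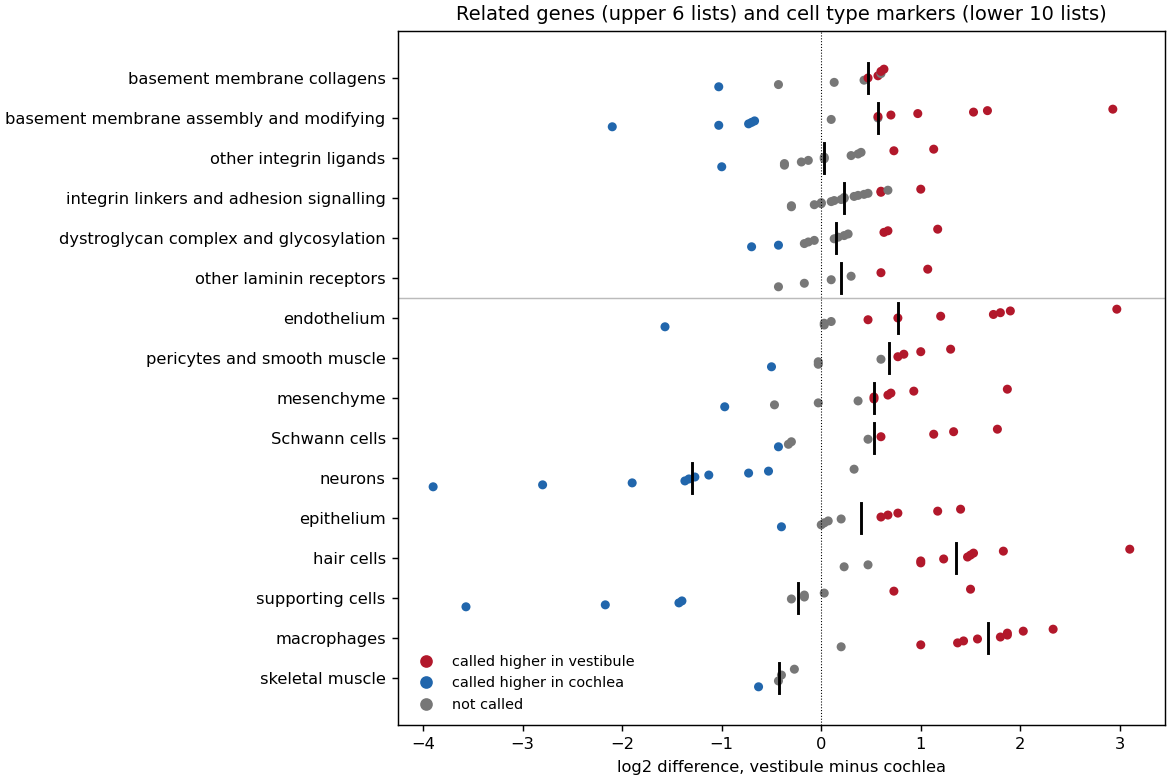
Log2 difference of vestibule minus cochlea for the tested genes of 6 lists related to laminins and integrins and of 10 lists of cell type markers, 1 point for each gene, with a black bar at the median of each list. The genes of basement membrane assembly spread from Egfl6 at -2.10 to Ntn1 at 2.93, macrophage and hair cell markers lie mostly to the right and neuronal markers mostly to the left.

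Several cell types that make or sit on basement membranes also differed between the tissues. The shares over all genes tested, 15.1% towards the vestibule and 7.97% towards the cochlea, stand beside each marker list below. Of 11 tested endothelial markers, 7 (63.6%) were called towards the vestibule and 1 (9.09%), Emcn, towards the cochlea. The summed linear level of all 12 measured markers was 1880 to 2683 on the cochlear and 3399 to 3894 on the vestibular arrays. Pecam1, a defining endothelial marker, lay below the filter. Mesenchymal markers were higher in the vestibule for 6 of 10 and in the cochlea for 1, with sums of 33685 to 45422 and 51042 to 56405. Each such sum is set mainly by the brightest probe sets of its list. Schwann cell markers were higher in the vestibule for 4 of 8 and in the cochlea for 1, with sums of 12727 to 16076 and 23000 to 34770, and pericyte and smooth muscle markers for 4 of 8 and 1, with sums of 2278 to 2514 and 2872 to 3487. Of 10 macrophage markers 9 were higher in the vestibule, with sums of 2119 to 2707 and 8281 to 9910.

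Of 10 epithelial markers 5 ran towards the vestibule and 1 towards the cochlea, with sums of 11766 to 15376 and 18169 to 19720. Hair cell markers were higher in the vestibule for 8 of 10, with sums of 2398 to 3005 and 6735 to 7953. Supporting cell markers were mixed, with 2 of 10 higher in the vestibule, 4 in the cochlea and sums of 16312 to 22884 and 14921 to 18151. Neuronal markers ran towards the cochlea for 9 of 10, with sums of 6898 to 7915 and 3633 to 3989. Of 4 tested skeletal muscle markers 1 (25.0%) was higher in the cochlea, and Myod1 and Myog lay below the filter. The sums over all 10 measured skeletal muscle markers were 330 to 671 and 293 to 374. The laminin, nidogen and integrin genes called higher in the vestibule shared their direction with all called macrophage and hair cell markers. They also shared it with most called endothelial, pericyte and smooth muscle, mesenchymal, Schwann cell and epithelial markers. Each of these latter lists also had 1 marker called towards the cochlea. Those higher in the cochlea shared their direction with the called neuronal markers, while supporting cell markers were called both ways. Only the cochlea and the vestibule were compared, so any genes called in 1 direction move together, which links no gene to a cell type. The part of these cell types in the results was not tested.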

How the data were processed

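Affymetrix mouse whole-genome arrays, 3 labelled cochlea and 3 labelled vestibule, were analysed. The authors amplified the RNA, computed log2 values by RMA with quantile normalization and deposited log2 values with 1 decimal, which run from 2.8 to 15. For the RMA software, the version is not given in the sources. After 64 control probe sets were left out, as many probe sets were kept as passed the Present call filter of the study, taken by mean log2 value (minimum 4.68), because Present calls need probe-level values. Symbols came from the platform annotation and were updated through Entrez numbers. The array holds 45101 probe sets. Of the 45037 left without the controls, 34945 named 1 gene, 932 several and 9160 none.

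Vestibule and cochlea were compared by the moderated test of limma (version 3.58.1, R version 4.3.3; lmFit and eBayes), two-sided, with 95% confidence intervals and Benjamini-Hochberg adjustment over all tested probe sets. The script was tested on simulated data. Figures used Python 3.11.15, pandas 2.3.3, numpy 2.4.6 and matplotlib 3.10.9. The number of arrays limits the precision. Summed levels are sums of 2 to the power of the log2 values over all measured genes of a list, including those below the filter. They do not measure the amount of a cell type.

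The genes and lists were chosen with earlier results of these data known. All 35 genes are named, as are up to 4 called genes with the largest differences in each related list. Emcn, Pecam1, Myod1 and Myog were named after their values were seen. Alternatives changed the filter (none, or the 20000 brightest probe sets), the scaling (median centring or a further quantile step), the model (variance trend, array weights, replicate block), the thresholds (adjusted p under 0.05, or any fold), the probe sets (averaged for each gene, or without _x_at and _s_at) and the rounding (a random value of up to 0.05 added), and left out each array in turn. Counting any probe set of a gene was added after seeing the data.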

Additional observations from a re-analysis of the deposited data

How the results depend on the processing

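Of the 16 calls, 13 were kept under each of the 18 alternatives that tested the gene, and no called gene changed sign. The calls of Lama2, Lamc3 and Itga4 were lost under 10, 6 and 12 of them, and Lamc1, Itga5 and Itgb8 gained a call under 1, 2 and 5. Median centring and the further quantile step ended the calls of Lama2 and Itga4 and added that of Itgb8, and moved the median of all probe sets by less than 0.1. Leaving out 1 array gave 9 to 12 genes called towards the vestibule and 4 to 5 towards the cochlea, and the other alternatives gave 9 to 11 and 3 to 6. The 3 were obtained with the stricter filter, which tested 27 of the 35 genes. Among the called genes it left out Itgb6, Lamc3, Lama3 and Itgb3. Deviations from the tissue mean correlated between same-numbered arrays for replicates 1 (0.217) and 2 (0.153) but not 3 (-0.001). Cochlea replicate 1 with vestibule replicate 2 gave -0.224, and cochlea replicate 2 with vestibule replicate 1 gave -0.147. The remaining pairs lay between -0.030 and 0.029. Whether the numbers mark pairs is not stated in the sources, and the main model did not use them. With the replicate block 10 genes were called towards the vestibule and 4 towards the cochlea, against 11 and 5, the lost calls being those of Itga4 and Lamc3. Values near the floor of the array (Itgb6 in the vestibule) and probe sets of a gene that differ in size (Fn1, Npnt, Itgb3) limit the sizes given, and levels cannot be compared between genes. In the cochlea the means of Lama1 (5.27), Lama3 (5.0) and Itgb3 (5.23) were also low. So was the vestibular mean of Lamc3 (5.03), with 4.68 as the lowest mean that the filter kept.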
